A study of Homo sapiens with 6 samples.

Results

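Cyclins, cyclin-dependent kinases (CDKs), the inhibitors that hold them back and the E2F transcription factors they release were compared between 10A/143B and 468/143B cybrids. The set held 50 genes, chosen by name, and its members were the probe sets that the platform's table assigns to 1 member symbol only. These were 113 of the 41091 probe sets used, each with a single symbol, and they measured 49 of the 50 genes, out of 19775 genes in all. CDKN2C was not analysed here.

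A cybrid joins the nucleus of one cell with the mitochondria of another. Both cybrids were made from 143B, an osteosarcoma line lacking thymidine kinase, in its form without mitochondrial DNA (p0), fused in polyethylene glycol with donor cells enucleated by actinomycin-D. The donors were MCF10A, a non-cancerous breast epithelial line, for 10A/143B, and MDA-MB-468, a metastatic breast cancer line, for 468/143B. Bromodeoxyuridine without uridine then removed donor cells and unfused 143B cells, so that both groups passed the same fusion and selection. RNA was extracted in triplicate, and each extract was measured on 1 Affymetrix array, 3 per group. The labels do not say whether the extracts came from separate cultures or whether a cybrid is 1 clone, and the series' title asks whether mitochondria of non-cancerous cells restrain metastatic ones.

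The cell cycle is driven by CDKs that are active only when bound to a cyclin. D cyclins with CDK4 or CDK6 and then E cyclins with CDK2 phosphorylate RB1 and its relatives, which frees E2F factors to turn on genes of DNA synthesis. Cyclin A and B complexes with CDK1 carry the cell through G2 and mitosis, under the control of the transcription factors B-MYB and FOXM1, while INK4 and CIP/KIP proteins inhibit the kinases. Many of these proteins are set by phosphorylation and degradation, which messenger RNA does not show.

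Values are probe set intensities on a linear scale, given for replicates 1, 2 and 3 in that order. Differences are 10A/143B minus 468/143B on the log2(intensity + 16) scale, which understates the change of dim genes, with the standard error (SE) of the limma fit. Folds are taken from these differences and are not ratios of the printed intensities. The brightest probe set on average stands for each gene, and p-values were adjusted over all 19775 genes (Benjamini-Hochberg) at 0.05. Values of a gene's further probe sets come from a separate fit to all 41091 probe sets, with p-values adjusted over these. Where the probe sets of CDK6 are listed together, all come from that fit. Replicates 2 and 3 were near duplicates in both groups: the SD of their log2 differences among bright probe sets was 0.08 in 10A/143B and 0.09 in 468/143B, against 0.26 to 0.28 for differences from replicate 1. A second fit therefore averaged replicates 2 and 3 to 1 sample per group (2 against 2). Where replicate 1 of a group was left out, only the near duplicates remained in that group, so the p-values understate its scatter. Below, higher and lower are said of a gene that passed both fits unless a fit is named. All p-values reflect no more than the scatter among these 6 arrays, and that scatter could be technical.

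Median intensities were 21.7 to 24.4 in 10A/143B and 20.4 to 21.4 in 468/143B. For ACTB, 3′ over 5′ probe set intensity, a sign of RNA integrity, was 1.59 to 1.92 and 1.18 to 1.67, and its part in the results was not tested. In bulk RNA, fewer cells expressing a gene and less RNA per cell cannot be told apart. Of 10 osteoblast and mesenchymal markers of the 143B type, VIM (8687 and 8418 in 10A/143B and 468/143B) and RUNX2 (514 and 605) were bright in both. COL1A2 (8.49 and 8.76) was dim, as were ALPL (23.2 and 42.6) and S100A4 (21.0 and 57.2). In 10A/143B 1 was higher, SPP1 (352 and 222), and 4 were lower: FN1 (159 and 859), TWIST1 (247 and 643), SPARC (1483 and 2354) and S100A4. Among 9 measured epithelial markers of the donor cells KRT8 was lower and 0 were higher, and their summed intensity was 4967 to 5460 against 6414 to 6975. Without KRT8 and KRT18, which made up most of these sums, they were 88.3 to 97.9 and 80.7 to 92.1. KRT5 stood at or near the lowest value of the arrays in both groups.

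Of the 49 measured members, 13 were higher and 4 lower in 10A/143B in both fits, a further 4 passed only the fit to 6 arrays, and 28 passed neither. These calls rest on the brightest probe set of each gene. CCND2, counted as higher, and TFDP2, counted as lower, have no settled direction over their probe sets. The 17 that passed both are 34.7% of the members, where 22.7% of all genes did, and 33.8% of the genes whose higher group mean reached the median level of all probe sets (5.24 on the log2(intensity + 16) scale), as 47 of the 49 members did. By direction, 13.8% of all genes were higher and 8.89% lower. The fit to 6 arrays alone gave 16 higher and 5 lower members, where 35.6% of all genes passed (19.9% higher, 15.7% lower). The averaged fit alone gave 13 and 4 (22.7% of all genes, 13.8% and 8.9% by direction), and a fit with the replicate number as a block gave 19 and 5 (39.2% of all genes, 21.3% and 17.8%). The members' arrays did not overlap between the groups for 26 genes, against 45.8% of all genes. The share of members that passed is thus close to that of other genes of such levels, and 5 (CDK6, RBL1, LIN9, CCNE2 and CDKN1C) passed both fits and differed at least 2-fold, as 9.59% of all genes did. The median difference was 0.10 over the members and -0.02 over all genes. With 1 array left out the lower count ran from 4 to 8. It was highest without 10A/143B replicate 1, which leaves only near duplicates in that group. The balance moved with scaling, to 15 higher and 8 lower after quantile normalization and 14 and 7 after median centring, which took the median of all genes to -0.12. The members' median was -0.0044 after median centring. After quantile normalization it was -0.02, against -0.06 over all genes.

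**Figure D1:**
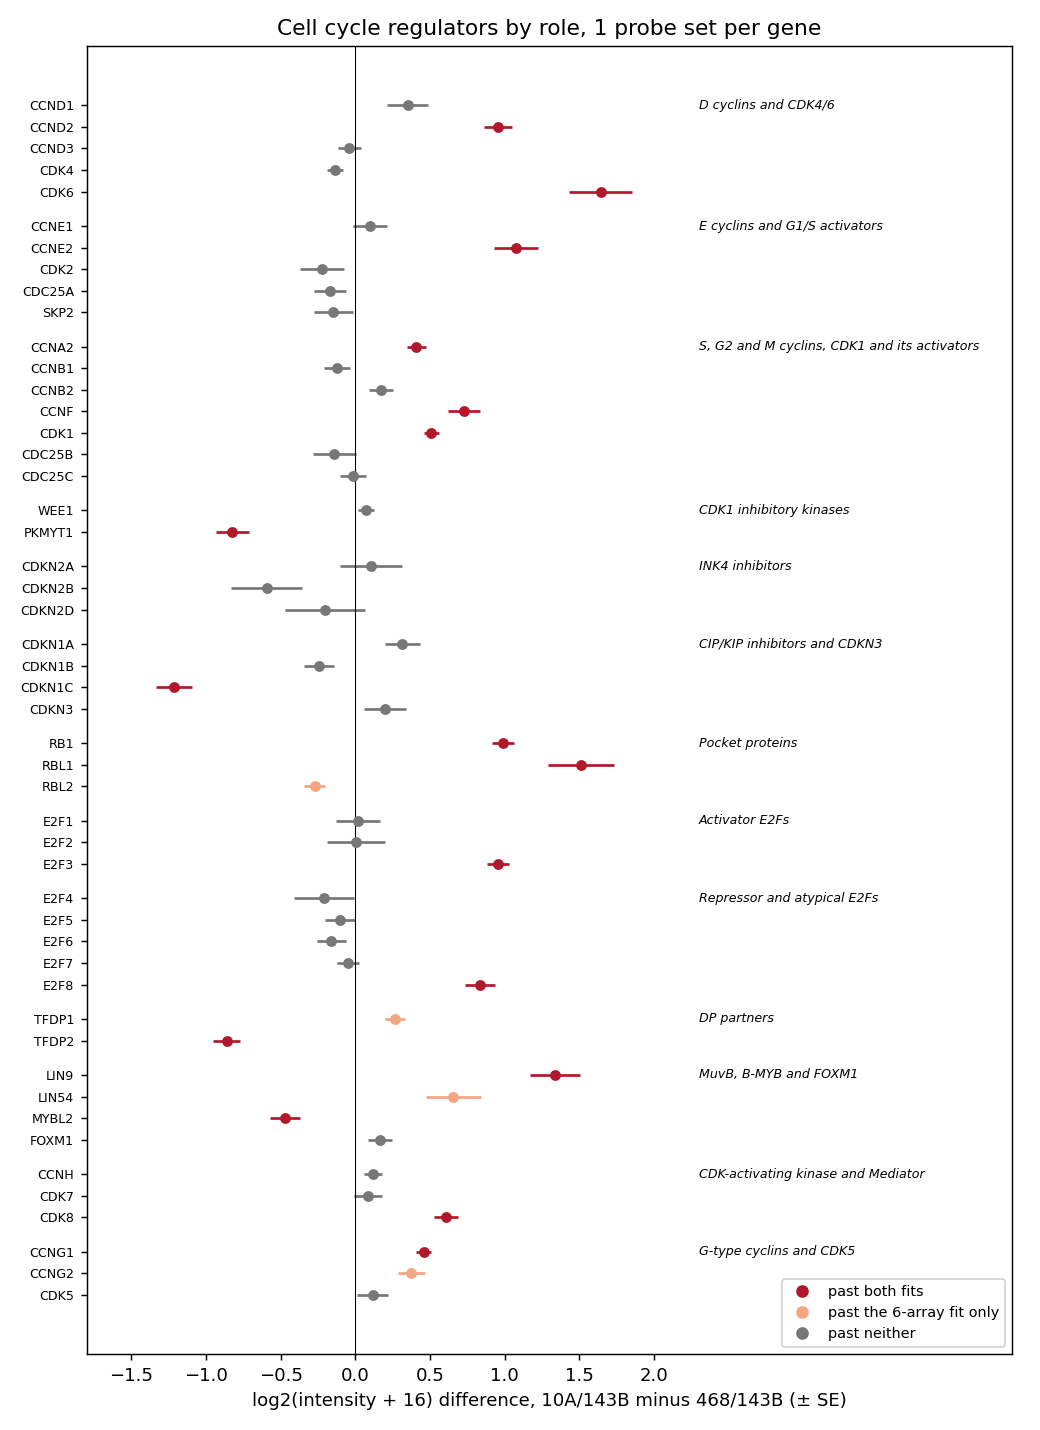
Log2(intensity + 16) difference, 10A/143B minus 468/143B, of the 49 measured members grouped by role, as points with bars for ± 1 SE of the fit to 3 against 3 arrays. Colours separate the 17 genes past both fits, the 4 past the 6-array fit only and the 28 past neither; CDK6 lies highest at 1.64 and CDKN1C lowest at -1.21.

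In G1, CDK6 and cyclin D2 passed both fits on their brightest probe sets, while cyclins D1 and D3 and CDK4 passed neither fit. For both genes that passed, other probe sets went the opposite way. CDK6, a catalytic partner of the D cyclins, gave intensities of 2195, 1734 and 1898 in 10A/143B against 407, 776 and 709 in 468/143B, and was 3.12-fold higher in 10A/143B (1.64 ± 0.21, adjusted p = 3.78e-04, or 0.00166 in the averaged fit). The groups did not overlap, and replicate 1 was the highest 10A/143B array and the lowest 468/143B array. Of 7 probe sets of CDK6, 3 were higher, at 1.64 ± 0.22, 1.42 ± 0.07 and 1.42 ± 0.12, and 3 passed neither fit. The remaining one was far lower in 10A/143B (-2.17 ± 0.24, mean intensities 11.7 and 112, adjusted p = 2.13e-04, or 0.00376 averaged). With the mean of all 7 the difference was 0.45. Direction and size for CDK6 thus hold for its 3 brightest probe sets and not for every one.

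CCND2, which encodes cyclin D2, gave 942, 1113 and 1089.9 in 10A/143B against 491, 512 and 592 in 468/143B. It was 1.94-fold higher (0.96 ± 0.09, adjusted p = 7.89e-05, or 0.00157 in the averaged fit), with every 10A/143B array above every 468/143B array. Of its 3 dimmer probe sets, 2 went the other way and the remaining one did not pass (0.30 ± 0.26). One with mean intensities of 82.2 and 183 was lower by 1.03 on the log2 scale (adjusted p = 7.93e-04, or 0.0185 averaged), another (41.4 and 86.7) was lower by 0.83 (adjusted p = 0.0073, or 0.0568 averaged), and the mean over the gene's probe sets was -0.15, so CCND2 has no settled direction.

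CCND1, cyclin D1, gave 1438, 2091 and 2034 in 10A/143B against 1305, 1489 and 1509.7 in 468/143B. The groups overlapped at replicate 1 of 10A/143B, and the difference did not pass (0.35 ± 0.14, adjusted p = 0.0824, or 0.283 in the averaged fit). With the replicate number as a block it passed (adjusted p = 0.00866), as it did without 10A/143B replicate 1 (0.52, adjusted p = 8.28e-04). Its further probe set was lower in 10A/143B (-0.88 ± 0.15, mean intensities 539 and 1008, adjusted p = 0.00269, or 0.0381 averaged). Cyclin D1, like D2, therefore gave opposite signs on its probe sets.

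CDK4 gave 1160.1, 1152 and 1193 in 10A/143B against 1278, 1314 and 1269 in 468/143B. Every 10A/143B array lay below every 468/143B array, yet the difference was small and did not pass (-0.14 ± 0.05, adjusted p = 0.0788, or 0.392 in the averaged fit). It passed after quantile normalization (-0.19, adjusted p = 0.0171) and median centring (-0.24, adjusted p = 0.0176). CCND3, cyclin D3, differed by -0.04 ± 0.08 (adjusted p = 0.733). Among these 5 genes, 2 were higher on their brightest probe sets, 0 lower and 3 passed neither fit. Cyclin D2, which has no settled direction, is counted among the 2.

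At the G1/S step, 1 of 5 genes was higher and 4 passed neither fit. CCNE2, one of a pair of E cyclins that activate CDK2, gave 174, 194 and 217 in 10A/143B against 95.0, 69.1 and 89.3 in 468/143B. The groups were well apart, and CCNE2 was 2.1-fold higher (1.07 ± 0.15, adjusted p = 5.29e-04, or 0.0119 in the averaged fit). Its other probe set gave the same direction at 1.16 ± 0.20 (adjusted p = 0.00217, or 0.0357 averaged). CCNE1, the other E cyclin, gave 138, 153 and 149 in 10A/143B against 146, 125 and 137 in 468/143B, with the groups overlapping (0.10 ± 0.11, adjusted p = 0.572).

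CDK2 itself gave 252, 367 and 365 in 10A/143B against 425, 367 and 352 in 468/143B and did not pass (-0.22 ± 0.15, adjusted p = 0.298). Replicate 1 was its lowest array in 10A/143B and its highest in 468/143B. CDC25A, the phosphatase that activates CDK2, differed by -0.17 ± 0.11 (adjusted p = 0.276, but 0.0402 without 468/143B replicate 1, at -0.27). SKP2, which marks the inhibitor p27 for degradation, differed by -0.15 ± 0.13 on its brightest probe set (adjusted p = 0.444), and without 10A/143B replicate 1 by -0.31 (adjusted p = 0.00908). Another of its probe sets was lower (-0.60 ± 0.11, mean intensities 324 and 502, adjusted p = 0.00333, or 0.0348 averaged).

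Of 7 cyclins, kinases and phosphatases of S phase, G2 and mitosis, 3 were higher in 10A/143B, 0 lower, and 4 passed neither fit. CDK1, the kinase of mitotic entry, gave 2149.8, 2241 and 2210.3 in 10A/143B against 1531, 1552 and 1541 in 468/143B. Arrays within a group lay very close together, and CDK1 was 1.42-fold higher (0.51 ± 0.05, adjusted p = 8.76e-05, or 0.00715 in the averaged fit). Its 3 further probe sets had the same sign (0.41, 0.33 and 0.97) without passing. CCNA2, cyclin A2, which serves both CDK2 and CDK1, gave 1278, 1160.1 and 1201 in 10A/143B against 949, 904 and 879 in 468/143B. It was 1.33-fold higher (0.41 ± 0.06, adjusted p = 0.00104, or 0.0254 in the averaged fit), and 0.49 ± 0.14 on its other probe set (adjusted p = 0.0259, or 0.146 averaged).

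CCNF, cyclin F, the substrate-binding part of an SCF ubiquitin ligase, gave 206, 215 and 204 in 10A/143B against 129.8, 109.9 and 120.3 in 468/143B. The difference was 0.73 ± 0.11, or 1.65-fold (adjusted p = 8.09e-04, or 0.0269 in the averaged fit), and its dimmer probe set gave 0.31 ± 0.20 (adjusted p = 0.294). The B cyclins, which bind CDK1 in mitosis, passed neither fit. CCNB1 gave 2272, 1833 and 1859 in 10A/143B against 2210.3, 2091 and 2165 in 468/143B, with the groups overlapping (-0.12 ± 0.09, adjusted p = 0.329, or 0.715 in the averaged fit).

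Cyclin B1 depended on the array and the probe set. Without 10A/143B replicate 1 it was lower by 0.22 (adjusted p = 0.00584), while its other probe set was 0.21 higher and passed the 6-array fit only (adjusted p = 0.049, or 0.321 averaged). CCNB2 differed by 0.17 ± 0.08 (adjusted p = 0.156, or 0.375 in the averaged fit) and passed with the replicate number as a block (adjusted p = 0.037) and with the mean of its probe sets (0.34, adjusted p = 0.0168). A dim CCNB2 probe set passed the 6-array fit (0.77 ± 0.24, adjusted p = 0.0416, or 0.154 averaged). CDC25B (-0.14 ± 0.14) and CDC25C (-0.02 ± 0.09), the phosphatases that activate CDK1, passed neither fit (adjusted p = 0.516 and 0.914).

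Of the kinases that inhibit CDK1 by phosphorylation, PKMYT1 was lower and WEE1 passed neither fit. PKMYT1, the membrane-bound one, gave 349.7, 265 and 263 in 10A/143B against 537, 519 and 523 in 468/143B, and was 1.77-fold lower in 10A/143B (-0.83 ± 0.11, adjusted p = 4.67e-04, or 0.00966 in the averaged fit). The groups were well apart, with replicate 1 the highest in both. Its only probe set has the _x_at suffix of probe sets that can cross-hybridise, so the gene could not be tested without such probe sets. WEE1, its nuclear counterpart, gave 1261, 1261 and 1287 in 10A/143B against 1176, 1243 and 1201 in 468/143B. These arrays did not overlap, but the difference was 0.07 ± 0.05 (adjusted p = 0.362), and a dimmer WEE1 probe set passed the 6-array fit in the other direction (-0.52 ± 0.12, adjusted p = 0.0133, or 0.0707 averaged). With the mean of both probe sets WEE1 passed as lower (-0.22, adjusted p = 0.0355).

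Promoters of several members carry the short elements known from cell cycle genes, and those of CDK1, CCNF, E2F3 and RBL1, which were higher in 10A/143B, are shown beside that of CCNB2, which passed neither fit. They come from RefSeq windows on GRCh38.p14 and end at the base before an annotated gene start. Capitals mark exact matches on either strand to TTTGAA or TTCGAA (the cell cycle homology region, CHR, read by the MuvB complex), TTTGGCGC or TTTCGCGC (an E2F site) or CCAAT (the NF-Y site).
CDK1, chr10:60778161-60778330, plus strand: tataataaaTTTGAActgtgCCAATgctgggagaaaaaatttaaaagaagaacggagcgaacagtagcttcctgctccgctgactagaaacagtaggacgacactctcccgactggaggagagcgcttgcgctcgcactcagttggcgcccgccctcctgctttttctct
CCNF, chr16:2429317-2429446, plus strand: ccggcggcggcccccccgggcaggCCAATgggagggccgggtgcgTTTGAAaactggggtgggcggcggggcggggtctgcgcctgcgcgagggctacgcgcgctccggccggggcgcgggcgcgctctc
E2F3, chr6:20401749-20401878, plus strand: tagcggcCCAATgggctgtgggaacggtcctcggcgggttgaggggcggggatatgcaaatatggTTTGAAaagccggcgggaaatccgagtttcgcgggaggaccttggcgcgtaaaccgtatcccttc
RBL1, chr20:37095998-37096057, minus strand: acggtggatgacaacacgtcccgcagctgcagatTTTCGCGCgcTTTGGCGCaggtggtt
CCNB2, chr15:59105016-59105145, plus strand: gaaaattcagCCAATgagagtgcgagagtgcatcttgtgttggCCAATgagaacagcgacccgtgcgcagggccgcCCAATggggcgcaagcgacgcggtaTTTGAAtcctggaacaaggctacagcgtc

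In CCNB2 a CHR match 24 bases before the start followed 3 CCAAT matches, and CCNF and E2F3 each showed 1 CHR and 1 CCAAT match in the stretch printed. RBL1 had both forms of the E2F site, at 19 and 9 bases before the start. Upstream of a second annotated start of CDK1 lay an E2F match, at 121 bases, and CHR matches at 64 and 8 bases. RefSeq windows of 300 bases were held for 40 of the 50 members, 14 of them with more than 1 start. Of the 62 member windows, 15 (24.2%) held a CHR match, 7 (11.3%) an E2F match and 24 (38.7%) a CCAAT match, where the shares of all 35116 windows were 16.4%, 1.15% and 34.6%. Among the windows of members higher in 10A/143B these were 5, 3 and 7 of 16, among those of members lower 2, 0 and 1 of 4, and among those of members that passed neither or 1 fit 8, 4 and 15 of 39. The windows of CDKN2C, which was not analysed, hold a CCAAT match and are among the 62 but in none of these groups. The E2F matches of the higher members lay in RBL1 and in both windows of CDK1. The windows of lower members were those of MYBL2, without a match, and of TFDP2, whose probe sets disagree in direction. Windows of one gene can overlap, and a match of these letters is no evidence of binding.

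Among the inhibitors, CDKN1C alone passed. CDKN1C encodes p57, a CIP/KIP inhibitor of cyclin-CDK complexes, and gave 124, 118 and 137 in 10A/143B against 367, 288 and 290.02 in 468/143B. It was 2.32-fold lower in 10A/143B (-1.21 ± 0.12, adjusted p = 9.28e-05, or 0.00195 in the averaged fit), and the groups were far apart. Its 3 probe sets with an _x_at suffix fell further, at -1.94 ± 0.13, -1.94 ± 0.16 and -2.14 ± 0.22, and the fifth stood near the array's lowest value in both groups (1.21 and 1.43). CDKN1C was the most strongly lower of the 49 genes.

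CDKN1A, which encodes p21, a CIP/KIP inhibitor that p53 induces, gave 537, 729 and 714 in 10A/143B against 501, 512 and 556 in 468/143B. The groups overlapped through 10A/143B replicate 1, and it did not pass (0.32 ± 0.12, adjusted p = 0.0681, or 0.303 in the averaged fit). It passed with the replicate number as a block (adjusted p = 0.0243). It also passed without 10A/143B replicate 1 (0.45, adjusted p = 0.00109), which leaves only near duplicates in 10A/143B. CDKN1B, p27, gave 792, 657 and 596 in 10A/143B against 826, 771 and 815 in 468/143B, again with overlap (-0.24 ± 0.10, adjusted p = 0.102, or 0.382 in the averaged fit), and without the same array differed by -0.35 (adjusted p = 0.00376). CDKN3, a phosphatase that removes the activating phosphate of CDKs, differed by 0.20 ± 0.14 (adjusted p = 0.333). Its other probe set was 0.40 ± 0.09 (adjusted p = 0.0129, or 0.0848 averaged).

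INK4 genes, which inhibit CDK4 and CDK6, were dim. CDKN2A, the gene of p16 and ARF, gave 31.3, 54.6 and 33.8 in 10A/143B against 39.1, 34.1 and 32.4 in 468/143B, with overlapping groups and no settled sign (0.11 ± 0.21, adjusted p = 0.754). CDKN2B (mean intensities 4.77 and 15.8, -0.59 ± 0.24, adjusted p = 0.0883) and CDKN2D (16.3 and 22.4, -0.20 ± 0.27, adjusted p = 0.625) were the 2 members whose group means both lay below the median level of all probe sets. CDKN2B passed without 468/143B replicate 3 (-0.83, adjusted p = 0.0211) and after median centring (-0.70, adjusted p = 0.0396). Without detection calls these levels cannot be told from background.

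The pocket proteins, which hold E2Fs in check until phosphorylated, gave RB1 and RBL1 higher in 10A/143B and RBL2 without a call in both fits. RB1 gave 545, 580.04 and 572 in 10A/143B against 294, 267 and 271 in 468/143B. It was 1.99-fold higher in 10A/143B (0.99 ± 0.07, adjusted p = 2.08e-05, or 0.0016 in the averaged fit), with tight and well separated groups. A second, dim RB1 probe set showed no such difference (-0.02 ± 0.28, mean intensities 20.3 and 21.9), and the mean of both was 0.48. RBL1, p107, which cells make as they enter S phase, gave 66.3, 80.4 and 99.7 in 10A/143B against 12, 18.1 and 25.6 in 468/143B. It was 2.85-fold higher (1.51 ± 0.22, adjusted p = 7.71e-04, or 0.0111 in the averaged fit), at low intensities in 468/143B.

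The difference of RBL1 was 2.13 with an offset of 1 and 0.82 with an offset of 64, and over its probe sets the mean was 0.52. One of its further probe sets passed the 6-array fit in the same direction (0.71 ± 0.18, adjusted p = 0.0173, or 0.127 averaged), and the other 2 did not pass (-0.16 and -0.0030). RBL2, p130, the pocket protein of resting cells, was lower in the 6-array fit only (-0.27 ± 0.07, adjusted p = 0.013, or 0.128 in the averaged fit), with arrays that did not overlap. That call was also lost without 10A/143B replicate 3 (adjusted p = 0.0641).

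Of the activator E2Fs, E2F3 was higher and the others passed neither fit. E2F3 gave 534, 512 and 526 in 10A/143B against 261, 276 and 251 in 468/143B, and was 1.94-fold higher (0.95 ± 0.07, adjusted p = 2.32e-05, or 0.00147 in the averaged fit). Its second probe set went the same way (0.73 ± 0.16, adjusted p = 0.00755, or 0.0577 averaged). E2F1 gave 126, 165 and 163 in 10A/143B against 127, 153 and 168 in 468/143B, with fully overlapping groups (0.02 ± 0.15, adjusted p = 0.942). E2F2 differed by 0.01 ± 0.19 (adjusted p = 0.982).

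Among E2Fs that repress, E2F8, an atypical factor that binds DNA without a DP partner, gave 219.8, 241 and 242 in 10A/143B against 118, 124 and 131 in 468/143B. It was 1.78-fold higher (0.83 ± 0.10, adjusted p = 2.70e-04, or 0.0118 in the averaged fit) with groups well apart. E2F7, its close relative, passed neither fit (-0.05 ± 0.07, adjusted p = 0.671). E2F4, E2F5 and E2F6 differed by -0.21 ± 0.20, -0.10 ± 0.10 and -0.16 ± 0.10 and passed neither fit (adjusted p = 0.49, 0.49 and 0.247), although E2F6 passed after quantile normalization (-0.30, adjusted p = 0.0334).

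DP proteins pair with the classical E2Fs to bind DNA. TFDP2 gave 402, 343 and 375 in 10A/143B against 630.3, 729 and 714 in 468/143B on its brightest probe set and was 1.82-fold lower there (-0.86 ± 0.09, adjusted p = 9.67e-05, or 0.00356 in the averaged fit). A dimmer probe set gave the opposite, 0.99 ± 0.15 (adjusted p = 0.00119, or 0.0206 averaged), with mean intensities of 140.4 and 63.6, and one more also did in the 6-array fit (0.99 ± 0.29). TFDP2 therefore has no settled direction, and without _x_at and _s_at probe sets the gene came out 0.99 higher. TFDP1 was higher in the 6-array fit only (0.27 ± 0.07, adjusted p = 0.014, or 0.158 in the averaged fit), a call also lost without 10A/143B replicate 2 (adjusted p = 0.0617) or replicate 3 (adjusted p = 0.0679). Another TFDP1 probe set was lower (-0.65 ± 0.15, adjusted p = 0.00931, or 0.0433 averaged), so it too has no settled direction.

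The MuvB core, with B-MYB and FOXM1, turns on the genes of mitosis. LIN9, a MuvB subunit, gave 300.2, 322 and 300.2 in 10A/143B against 149, 85.6 and 108 in 468/143B. It was 2.53-fold higher in 10A/143B (1.34 ± 0.17, adjusted p = 3.12e-04, or 0.00486 in the averaged fit), and 468/143B varied more than 10A/143B. Another LIN9 probe set was 0.73 higher in the 6-array fit only, and the mean over the gene's probe sets was 0.71. LIN54, the MuvB subunit that binds the CHR, gave 0.66 ± 0.18 and passed only the 6-array fit (adjusted p = 0.0222, or 0.202 in the averaged fit). The LIN54 call was lost too without 10A/143B replicate 2 (adjusted p = 0.0868), 10A/143B replicate 3 (adjusted p = 0.0981) or 468/143B replicate 2 (adjusted p = 0.0791).

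MYBL2, which encodes B-MYB, went the other way, at 335, 388 and 407 in 10A/143B against 478, 572 and 534 in 468/143B. The groups did not overlap, and it was 1.38-fold lower (-0.47 ± 0.10, adjusted p = 0.00552, or 0.0474 in the averaged fit), narrowly inside the threshold of the averaged fit. Its only probe set missed that threshold in the averaged fit to every probe set (adjusted p = 0.0734). FOXM1 gave 362, 413 and 385 in 10A/143B against 335, 359.5 and 335 in 468/143B. Every 10A/143B array lay above the 468/143B arrays, but the difference did not pass (0.16 ± 0.08, adjusted p = 0.163, or 0.508 in the averaged fit). These 4 genes thus gave 1 higher, 1 lower and 2 without a call in both fits; other MuvB subunits are among the DREAM cofactors given further down.

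Cyclin H and CDK7, which together form the kinase that activates other CDKs, passed neither fit (0.12 ± 0.06 and 0.08 ± 0.09, adjusted p = 0.167 and 0.541). CDK8, the kinase of the Mediator complex, gave 689.8, 622 and 605 in 10A/143B against 443, 405 and 393 in 468/143B. It was 1.52-fold higher (0.61 ± 0.08, adjusted p = 4.17e-04, or 0.0101 in the averaged fit) without overlap, whereas its further probe sets gave 0.11 and 0.24 without passing. CDK5, best known from neurons, differed by 0.12 ± 0.10 (adjusted p = 0.451).

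CCNG1, cyclin G1, a p53 target, gave 2937, 3126 and 3019 in 10A/143B against 2165, 2241 and 2195 in 468/143B. It was 1.37-fold higher (0.46 ± 0.05, adjusted p = 1.85e-04, or 0.0114 in the averaged fit), with tight groups on the only probe set of the gene, which has the _s_at suffix. CCNG2, cyclin G2, which is linked to cell cycle exit, was higher in the 6-array fit only (0.38 ± 0.09, adjusted p = 0.0107, or 0.104 in the averaged fit), and this was lost with median centring (0.27, adjusted p = 0.0937). Of its 4 further probe sets, 2 passed the 6-array fit in the same direction (0.60 and 0.87).

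**Figure D2:**
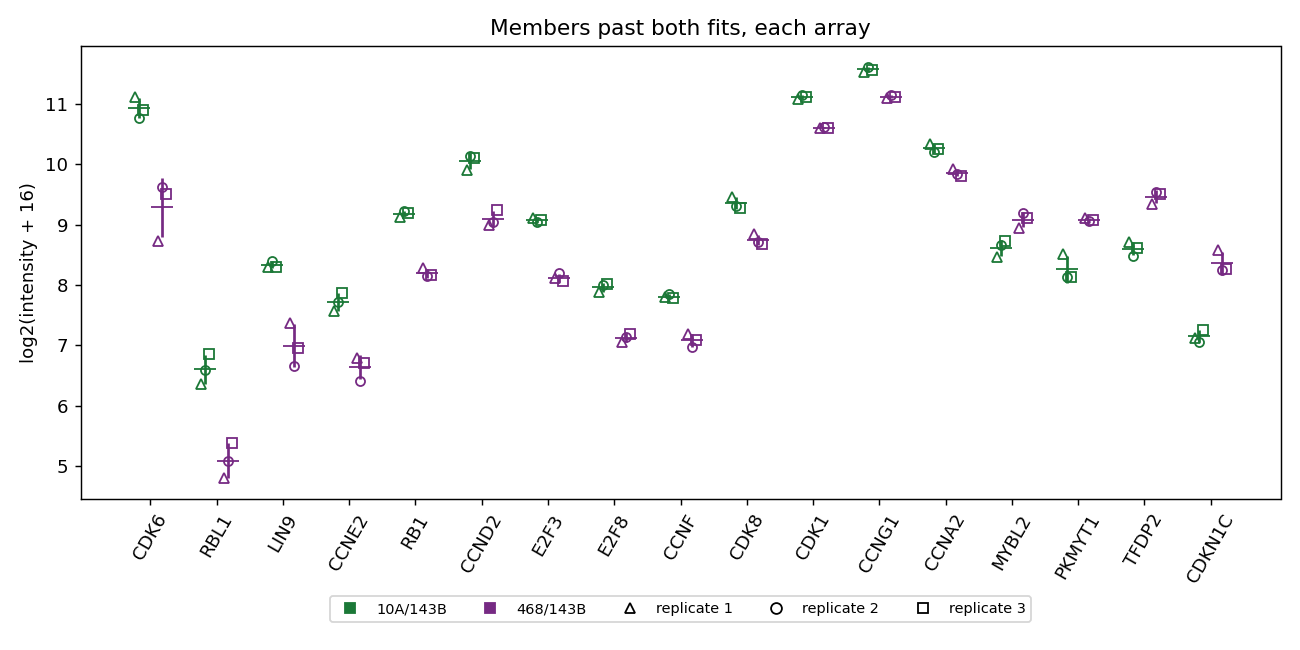
Log2(intensity + 16) of the 17 members past both fits, each array as an open symbol (green 10A/143B, purple 468/143B, shape by replicate) with a line for the mean and bars for ± 1 SD of 3 arrays. All 17 genes have groups that are fully separate; CDK1 lies at 11.11 ± 0.03 against 10.60 ± 0.01, and CDK6 at 10.93 ± 0.17 against 9.29 ± 0.49.

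Probe sets of one gene can lie in different exons or in introns, and where they lie was not used here. Counting every one of the 113 probe sets, with p-values adjusted over all 41091, 17 were higher and 11 lower in both fits, where 17.9% of all probe sets passed both (11.7% higher, 6.13% lower). The 6-array fit alone gave 30 higher and 15 lower (31.0% of all probe sets passed). Several probe sets measured 35 of the members. The 17 genes past both fits had 31 further probe sets, of which 10 passed the 6-array fit in the same direction, 5 in the opposite direction and 16 did not pass. The 5 belonged to CCND2, CDK6 and TFDP2. Counting TFDP1, 4 members had probe sets past the threshold of the 6-array fit in both directions.

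**Figure D3:**
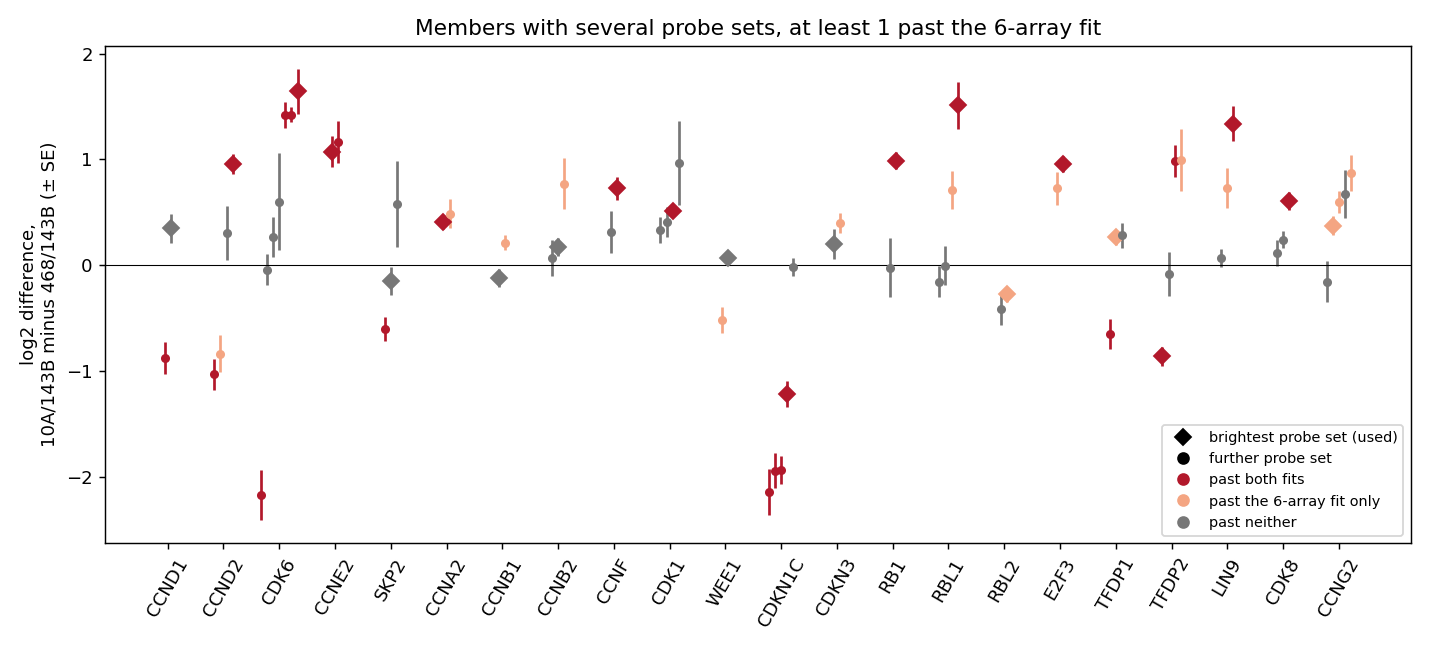
Log2(intensity + 16) difference of every probe set, with bars for ± 1 SE, for members with several probe sets of which at least 1 passed the 6-array fit. Diamonds are the brightest probe set of each gene and circles the others; those of CCND2, CDK6, TFDP1 and TFDP2 lie on both sides of 0 with calls on each, while 4 of 5 of CDKN1C lie between -1.21 and -2.14.

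Each member was also set beside its neighbours on the chromosome. For the 17 genes past both fits the median difference of the 10 tested genes on either side ran from -0.21 to 0.64, and the sign of the member was opposite to it for 9. Among the 13 that were higher, it lay within 0.25 of 0 for all 13. The neighbours of CDK6 had a median of -0.01, those of RB1 0.12, those of RBL1 -0.21 and those of E2F3 0.03. TFDP2 lay among neighbours with a median of 0.64. Those of CCNA2, LIN54 and CCNG2, all on chromosome 4, had medians of 0.21, 0.38 and 0.35. With the trend of differences on gene length removed, 16 members were higher and 5 lower in the 6-array fit. CDK6 then stood at 1.46, RB1 at 0.82, CDK1 at 0.58 and CDKN1C at -1.09. CCND1 (0.43, adjusted p = 0.038) and CDKN1A (0.41, adjusted p = 0.0242) passed while TFDP1 and LIN54 did not.

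Partners and targets of the members went both ways. Over all genes 22.7% passed both fits, against 33.8% of genes whose higher group mean reached the median level of all probe sets. Nearly all genes of the lists below reached that level. Of 23 measured further cyclins and CDKs, 8 were higher and 4 lower (median 0.30). Among the 4, CDK19 (-0.94 ± 0.14) had 2 other probe sets past the threshold the opposite way. The highest were CDK14 (1.55 ± 0.11), CDK13 (1.26 ± 0.14), which acts in transcription like CDK12 (1.07 ± 0.14), and CCNT2 (1.13 ± 0.13), a cyclin of the elongation kinase. Among 12 CDK subunits and adaptors 0 were higher and 3 lower (median -0.11): RGCC (-1.03 ± 0.07), CDK2AP2 (mean intensities 517 and 1051 in 10A/143B and 468/143B) and CKS1B (-0.55 ± 0.06), the cofactor of SKP2. Of the 12, 2 higher and 4 lower passed the 6-array fit.

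The ubiquitin ligases SCF and APC/C, which destroy cyclins and inhibitors, had 6 of 25 genes higher and 6 lower (median 0.06). Large increases were those of CUL1 (1.20 ± 0.09, with another probe set past the threshold the opposite way) and of the APC/C subunits ANAPC4 (1.09 ± 0.12), CDC16 (1.07 ± 0.08) and CDC27 (1.07 ± 0.07). Of 11 DREAM and E2F cofactors, 2 were higher and 1 lower (median -0.01), namely MYBL1 (1.09 ± 0.14), a relative of MYBL2, the methyltransferase EZH2 (0.74 ± 0.10) and the MuvB subunit LIN37 (-0.63 ± 0.10). The further MuvB subunits LIN52 (-0.12 ± 0.12) and RBBP4 (-0.19 ± 0.09) passed neither fit. For RBBP4, 4 other probe sets passed the threshold of the 6-array fit the opposite way.

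G1/S targets of E2F showed 3 higher and 6 lower of 23 (median -0.09), among them RFC4 of the clamp loader (1.20 ± 0.07), the polymerase POLD1 (-0.92 ± 0.13), thymidine kinase TK1 (-0.89 ± 0.08) and the helicase subunit MCM5 (-0.68 ± 0.07). As 143B is a line lacking thymidine kinase, TK1 may not read as other targets do, which was not tested. G2/M targets of FOXM1 and B-MYB showed 12 higher and 2 lower of 24 (median 0.36). The largest increases were those of ASPM (2.32 ± 0.13, with another probe set past the threshold the opposite way), the kinetochore motor CENPE (2.27 ± 0.18), the cytokinesis factor ECT2 (1.44 ± 0.08) and the checkpoint kinase TTK (1.24 ± 0.08). Over all genes, 13.8% were higher and 8.89% lower in both fits. All 24 genes of this list reached the median level of all probe sets, where 33.8% of genes passed in either direction. The list of G2/M targets has the highest median of the 6. It overlaps with mitotic genes seen as higher in 10A/143B in earlier results of these data, so it is not independent evidence of that direction. PLK1, the polo-like kinase of mitosis, was the lowest gene of that list (-0.89 ± 0.09).

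**Figure D4:**
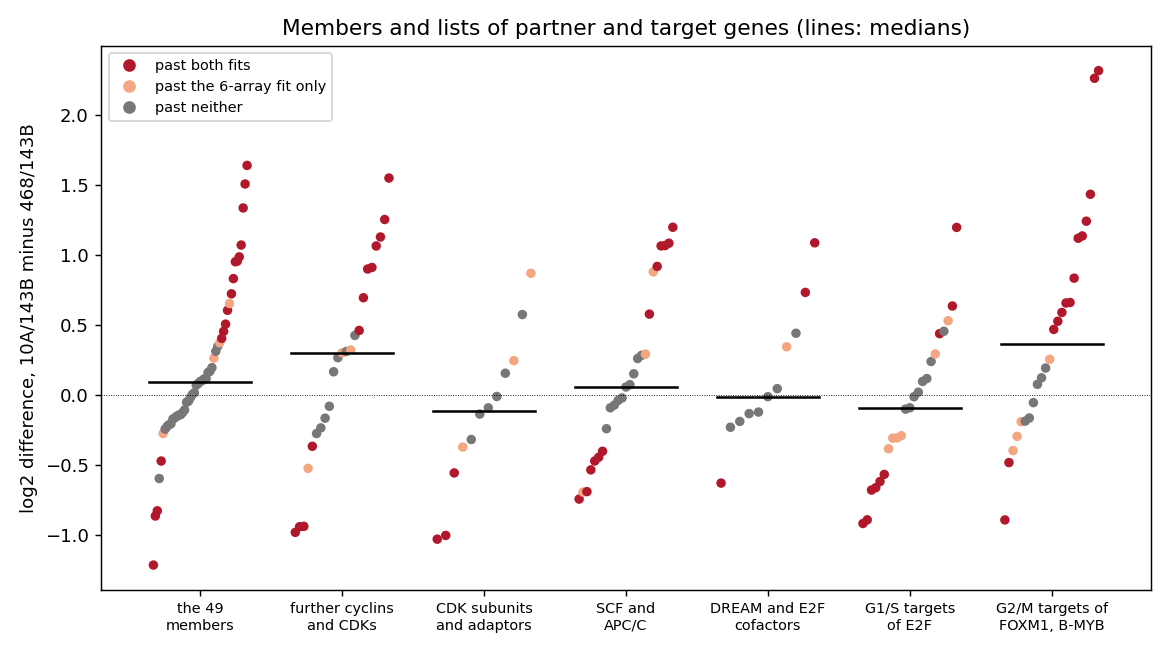
Log2(intensity + 16) difference, 10A/143B minus 468/143B, of the 49 members and of 6 lists of partner and target genes, 1 point per gene in rising order, with a line for the median of each list. Colours give the fits a gene passed; medians run from -0.11 for CDK subunits and adaptors to 0.36 for G2/M targets, against 0.10 for the members.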

How the data were processed

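The authors deposited 1 intensity per probe set and array on a linear scale. How intensities were summarised, background-corrected and scaled is not given in the sources used here. They ran from 1 to 13125, and their log2 was a multiple of 0.01 for 100% of values. No detection calls were used; with 6 arrays, their number limits the precision.

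Deposited intensities entered as log2(intensity + 16), with no further normalization. Of 42898 probe sets listed with a symbol, 1801 with several symbols and 6 control probe sets were left out; symbols were updated through Entrez identifiers to RefSeq genes of GRCh38.p14 for 41037 of 41091. Group and replicate number came from the source name. The sample titles name the donor lines and number the arrays otherwise: replicates 1, 2 and 3 here are titled 3, 1 and 2 in both groups. The comparison used limma 3.58.1 under R 4.3.3 (lmFit and eBayes, variance trended on intensity, Benjamini-Hochberg at 0.05), and the script was tested on simulated data. Same-numbered replicates deviated together from their group means (correlations 0.29, 0.18 and 0.12 for replicates 1, 2 and 3), but replicate 2 of one group and replicate 3 of the other also did (0.15 and 0.16), so the numbers do not separate those 2; a fit with the replicate number as a block is given too. It called 24 members, and its result is given beside a gene where it changed the call.

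The members and all gene lists were chosen with earlier results of these data known. Values of every array are given for members past both fits and, whatever their values, for CCND1, CDK4, CDK6, CCNE1, CDK2, CCNA2, CCNB1, CDK1, CDKN1A, CDKN1B, CDKN2A, RB1, E2F1 and FOXM1, and for WEE1, chosen after its values were seen. Of each list of other genes, up to 4 past both fits with the largest change are named; further genes named were chosen after their values were seen.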

Additional observations from a re-analysis of the deposited data

How the results depend on the processing

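Under 11 other settings and with each of 6 arrays left out in turn, 743 of 819 recomputed gene differences kept direction and side of the threshold, 17 lost the call with the sign kept, 19 gained it with the sign kept and 40 changed sign. Counting sign changes, 20 calls were lost and 21 gained, and the call of TFDP2 turned to higher without _x_at and _s_at probe sets. Of the 17 genes past both fits, 15 passed under every alternative that could be run, the exceptions being CCND2 and TFDP2 when probe sets were averaged per gene. CCND2, PKMYT1, E2F3 and CCNG1 have only _x_at or _s_at probe sets and could not be run without them. The fit to every probe set, where MYBL2 missed the averaged threshold, is not among these alternatives. The 5 lower members became 8 after quantile normalization and 3 without _x_at and _s_at probe sets, where PKMYT1 could not be tested and TFDP2 turned, and 4 to 8 with 1 array left out, while the 16 higher ones became 14 to 18. Of the 30 higher member probe sets, 17 passed with replicates 2 and 3 averaged, which left fewer samples. With the replicate number as a block, CCND1, CDKN1A and CCNB2 passed, and it changed no other call. Averaging probe sets turned the sign of CCND1 (-0.26), CCND2 (-0.15), CCNB1 (0.045), CDC25C (0.074), WEE1 (-0.22), CDKN2A (-0.26), CDKN2D (0.047), E2F1 (-0.057), E2F5 (0.029), TFDP1 (-0.034) and TFDP2 (0.26). Without _x_at and _s_at probe sets they turned for CCNB1 (0.21), CDKN2A (-0.75), CDKN2D (0.30) and TFDP2 (0.99). Quantile normalization turned CCNE1 (-0.071), CDKN2A (-0.028), E2F1 (-0.14), E2F2 (-0.19) and CDK5 (-0.020), and median centring CCNE1 (-0.0044), WEE1 (-0.031), E2F1 (-0.085), E2F2 (-0.096) and CDK7 (-0.018). Removing the length trend turned CCNH (-0.026), and averaging replicates 2 and 3 turned CDC25C (0.017). With 1 array left out, the difference ran from -0.079 to 0.0080 for CCND3, -0.072 to 0.048 for CDC25C, -0.074 to 0.21 for CDKN2A, -0.49 to 0.0058 for CDKN2D, -0.082 to 0.13 for E2F1, -0.17 to 0.15 for E2F2, -0.36 to 0.048 for E2F4, -0.093 to 0.015 for E2F7 and -0.0082 to 0.13 for CDK7. Except where construction shows it, the cause was not tested. Values near the lowest intensity, as for the INK4 genes, cannot be ordered, and the near-duplicate replicates 2 and 3 count as separate samples in the 6-array p-values. Without replicate 1 of a group, p-values rest on the near duplicates alone in that group.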
